A study of Rattus norvegicus with 17 samples.

Results

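Heat shock proteins and molecular chaperones were followed in laser-captured rat spinal cord neurons through 114 array probe sets for 76 genes, out of 31099 probe sets on the array. The members were the probe sets whose single gene symbol belonged to the Hspa, Hsph, Hsp90, Hspb, Hspd, Hspe, Dnaja, Dnajb, Dnajc, Cct and Bag families, with the helper genes Hspbp1 and Hspbap1 and without Hspb1. Of these, 79 probe sets for 64 genes were bright enough to be tested, and the other 35 were too dim. The rule used no measured value, and the label matched the annotation: all 114 probe sets were matched to RefSeq genes and 0 symbols differed. Probe sets shared between several genes were not members, and the constitutive HSP70 gene Hspa8, the inducible Hspa1b and the inducible HSP90 gene Hsp90aa1 were therefore not analysed here.

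Regenerating and Non-regenerating neurons, both axotomised, came from the same 7 rats, with 1 array per rat and group. Of these rats 5 carry names that begin with MM (MM11, MM13, MM14, MM16 and MM17) and 2 names that begin with MOON (MOON265 and MOON266). Traced neurons, retrogradely labelled in 3 other rats (MM15, MM18 and MM19) that had not been axotomised, gave 3 arrays, of which that of MM15 is titled a high yield replicate. All groups shared the retrograde label, the capture of 1000 neurons per sample from 10 µm sections of unfixed cord and 3 rounds of RNA amplification. Strain, age, lesion, time after axotomy and the way in which regenerating neurons were told apart are not given in the sources used here.

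Proteins of the HSP70 family bind unfolded stretches of other proteins in a cycle driven by ATP. J-proteins (Dnaja, Dnajb and Dnajc) bring clients and start ATP hydrolysis, while BAG proteins and the HSP110 protein Hsph1 release the nucleotide. HSP90 finishes the folding of kinases and receptors, the Cct ring folds actin and tubulin, Hspd1 and Hspe1 form the folding chamber of mitochondria, and small heat shock proteins hold clients that have begun to unfold. After stress, heat shock factor binds inverted repeats of a short unit in the promoters of many of these genes. Neurons depend on chaperones over the length of their axons, and the small heat shock protein Hspb8 with its partner Bag3 clears damaged proteins through autophagy.

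Because heat shock factor ties many members together, their RefSeq promoters (GRCr8, 250 bases before to 50 after each gene's start) were searched for its repeat. Promoter sequences were found for 64 of the 76 genes, in 65 windows (Bag6 had 2). The paired forms GAANNTTC and TTCNNGAA each occurred in 12 windows (18.5%), against 8.59% and 8.77% of all 33469 promoters. Each form is its own reverse complement, so that both strands were covered, and the forms can overlap by sharing a unit. Either form was found in 17 windows (26.2%), against 15.9% of all promoters. A run of 3 alternating units was found in 5 windows (7.69%; Cct4, Dnaja1, Hspd1, Hspe1 and Hsph1), against 0.798% of all promoters. Hspd1 and Hspe1 lie head to head and their windows overlap, so that both counts rest on 1 stretch of DNA. A match is a run of letters, not a measured site of binding.

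**Figure D1:**
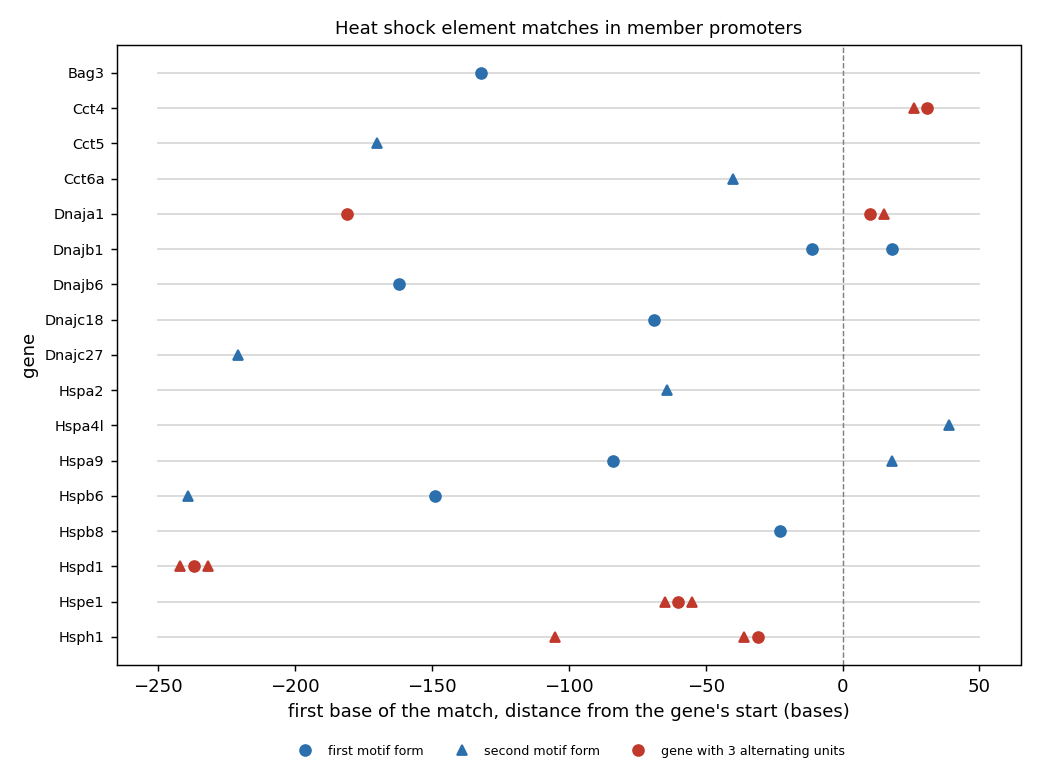
Positions of the paired repeat (first base of each match, in bases from the gene's start) in the 17 promoter windows that held a match. Circles and triangles stand for the forms GAANNTTC and TTCNNGAA, and genes with 3 alternating units are red; in Hspe1 the matches lie at -65, -60 and -55, in Hspb8 at -23 and in Bag3 at -132.

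The promoters of 4 members are shown, with matches in capitals, 5′ to 3′ on the gene's own strand. Among the tested member genes, Bag3 had the largest log2 fold change between Regenerating and Non-regenerating neurons. Bag3 and its partner Hspb8 each held a single match, while Hspe1 and Hsph1 held runs of 3 or more alternating units. The windows lie at chr1:192533210-192533509 (+) for Bag3, chr12:45837058-45837357 (+) for Hspb8, chr9:64084077-64084376 (+) for Hspe1 and chr12:10427118-10427417 (+) for Hsph1.
Bag3: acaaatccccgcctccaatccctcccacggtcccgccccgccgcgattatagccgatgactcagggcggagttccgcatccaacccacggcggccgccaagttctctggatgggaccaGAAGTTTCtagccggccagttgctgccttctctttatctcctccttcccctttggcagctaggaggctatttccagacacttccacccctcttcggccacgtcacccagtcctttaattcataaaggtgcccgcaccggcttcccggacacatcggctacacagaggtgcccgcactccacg
Hspb8: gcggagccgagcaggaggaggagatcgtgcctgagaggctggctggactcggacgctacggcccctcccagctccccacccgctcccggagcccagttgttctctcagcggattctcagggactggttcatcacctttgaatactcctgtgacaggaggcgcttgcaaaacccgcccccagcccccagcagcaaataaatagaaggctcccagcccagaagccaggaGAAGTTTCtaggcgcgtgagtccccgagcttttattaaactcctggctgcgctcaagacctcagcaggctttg
Hspe1: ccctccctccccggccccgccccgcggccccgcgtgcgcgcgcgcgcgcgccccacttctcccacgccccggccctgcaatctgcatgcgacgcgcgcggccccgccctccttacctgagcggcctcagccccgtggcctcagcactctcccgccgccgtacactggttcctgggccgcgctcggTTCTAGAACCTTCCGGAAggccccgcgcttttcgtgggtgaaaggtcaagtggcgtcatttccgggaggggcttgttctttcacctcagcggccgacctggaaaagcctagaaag
Hsph1: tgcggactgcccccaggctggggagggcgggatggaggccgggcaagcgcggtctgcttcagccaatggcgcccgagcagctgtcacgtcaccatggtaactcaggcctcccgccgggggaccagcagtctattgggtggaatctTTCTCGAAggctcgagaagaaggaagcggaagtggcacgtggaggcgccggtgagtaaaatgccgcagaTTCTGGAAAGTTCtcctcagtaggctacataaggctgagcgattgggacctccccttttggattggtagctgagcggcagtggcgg

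Signals are linear intensities scaled by the authors so that every array had a trimmed mean of about 200, and log2 fold changes were taken after adding 16, which understates changes of dim probe sets. All 10 neuron markers were bright enough, by their mean over all arrays, to be tested. Against Traced neurons 8 of the 10 were below 0, with medians of -0.23 for Regenerating and -0.09 for Non-regenerating neurons. Within animals 6 were below 0 (median -0.05), and 0 passed an adjusted p of 0.05 in limma in any comparison. The arrays of Non-regenerating MM17 and Traced MM15 stood apart, with median correlations to the remaining arrays of 0.847 and 0.821, against 0.905 to 0.949 for the Regenerating arrays. Their log2 ratios of 3 prime to 5 prime Gapdh control signal were 2.94 and 3.21, the 2 lowest of the 17 arrays. Precision is limited by how few arrays there were. The arrays of the MOON animals enter the comparisons with Traced neurons only on the axotomised side, and fewer cells of a type and less RNA per cell cannot be told apart in such samples.

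The first question was which chaperone genes go with regeneration within an animal. In Regenerating against Non-regenerating neurons, none of the 79 member probe sets passed an adjusted p of 0.05 in limma, where 0.0161% of all 18625 tested probe sets did. The co-chaperone gene Bag3 had the smallest p among them and was above its Non-regenerating value in 7 of 7 animals. At an unadjusted p under 0.05, 3 members were higher (3.8%; Bag3, a probe set of Hsp90ab1, and Hspa13), against 4.26% of all tested probe sets, and 1 was lower (1.27%; Dnajc12), against 2.81%. Higher in every animal were 2 members (2.53%; Bag3 and the same Hsp90ab1 probe set), against a background of 1.12%, and lower in every animal were 0, against 0.966%. These shares lie near the background, and the median log2 fold change over the 64 genes was 0.05, with 40 of them above 0, beside -0.00 and 49.8% over all tested probe sets.

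Bag3 is a nucleotide exchange factor that links HSP70 to autophagy. Its signal ranged over 448.6, 744.0 and 1369.9 (lowest, median, highest) in Regenerating neurons, against 261.9, 534.6 and 624.8 in Non-regenerating and 339.7, 512.5 and 721.7 in Traced neurons. Every animal was higher in its Regenerating sample, although in MOON266 the values were 448.6 and 447.7, and the group ranges overlapped. The log2 fold change was 0.63 (SE 0.15, adjusted p = 0.523), with a mean of 0.74 in the 5 MM animals and 0.33 in the 2 MOON animals. Across 20 other settings it lay between 0.52 and 0.74, and the smallest adjusted p was 0.34. Against Traced neurons, the differences were 0.57 (SE 0.32, adjusted p = 0.295) for Regenerating and -0.05 (SE 0.29, adjusted p = 0.954) for Non-regenerating neurons, comparisons that share arrays with the first.

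Hspb8, the small heat shock protein that works with Bag3, had signals of 112.4, 194.5 and 517.0 (lowest, median, highest) in Regenerating, 130.7, 143.3 and 235.4 in Non-regenerating and 144.4, 197.5 and 255.6 in Traced neurons. The Regenerating samples of MOON265 (517.0) and MM14 (406.6) lay above all others, and MM13 and MOON266 were lower in their Regenerating samples. The log2 fold change was 0.45 (SE 0.22, adjusted p = 0.697), higher in 5 of 7 animals, and 0.21 without MOON265. The other 2 tested small heat shock proteins among the members had values below 0 in this comparison, whereas Hspb1 and Cryab, which are no members, had values of 0.58 and 0.38. Hspb6, best known from muscle, gave -0.31 and was lower in 6 of 7 animals, and Hspb7, best known from heart muscle, gave -0.32 with 4 of 7 lower. Neither passed the test.

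The remaining BAG genes differed by 0.25 (Bag1, an HSP70 release factor), 0.14 (Bag4), 0.05 (Bag5) and -0.10 (Bag2). Bag1 had signals of 242.0, 584.6 and 791.2 in Regenerating, 224.1, 501.6 and 741.6 in Non-regenerating and 224.9, 504.9 and 505.6 in Traced neurons. Its 4 arrays from MOON animals (224.1 to 303.4) lay below the 10 axotomised arrays from MM animals (351.5 to 791.2), with no overlap. Hspbap1, whose product binds a small heat shock protein, differed by 0.49 and was higher in 5 of 7 animals. Its signal was low, at 11.2 on Non-regenerating MM17 and 6.6 on Traced MM15, the arrays that stood apart. On the 15 other arrays Hspbap1 had 34.4 to 115.1. Hspbp1, an HSP70 release factor, differed by 0.34 and was higher in 6 of 7.

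**Figure D2:**
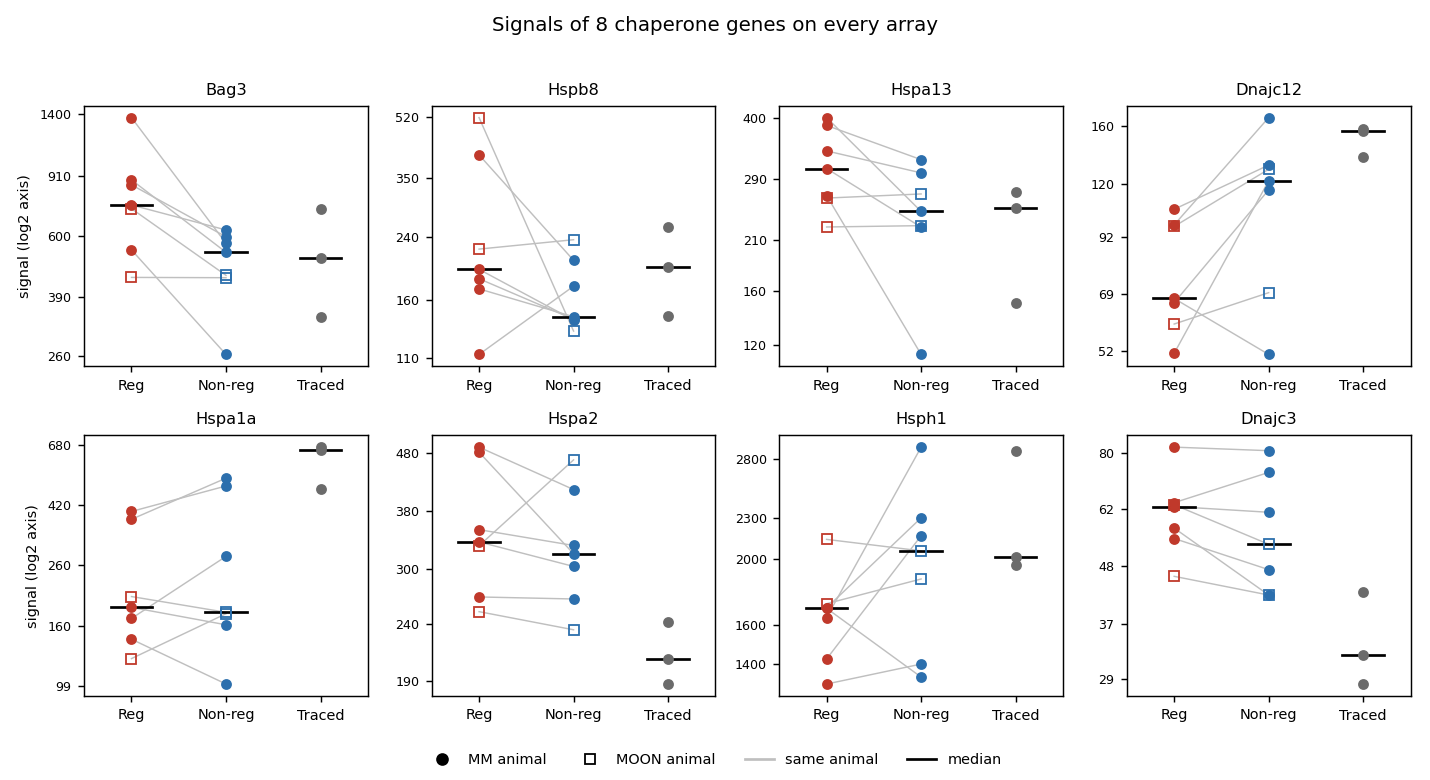
Signal (linear intensity on a log2 axis) of 8 chaperone genes on each of the 17 arrays. Grey lines join the Regenerating and Non-regenerating samples of an animal, bars mark medians, and open squares are MOON animals; Bag3 was higher in 7 of 7 Regenerating samples, and the 3 Traced values of Hspa1a lay above all 7 Regenerating values.

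Among the 11 tested genes of the HSP70 and HSP110 family, 5 were above 0 and 6 below within animals, with a median log2 fold change of -0.03. Hspa13, a microsomal ATPase of this family, had signals of 224.5, 306.3 and 401.6 in Regenerating, 114.0, 243.8 and 321.1 in Non-regenerating and 149.8, 248.6 and 270.4 in Traced neurons. It was higher in 5 of 7 animals (0.37, SE 0.15, adjusted p = 0.678), with 0.53 in MM and -0.02 in MOON animals and the largest gap in MM17. Hspa5, the chief chaperone of the endoplasmic reticulum (BiP), lay between 1178.8 and 1890.4 in Regenerating, 1173.0 and 1848.6 in Non-regenerating and 1449.1 and 1854.1 in Traced neurons, with a difference of -0.03 (SE 0.12) within animals. The 3 ranges of Hspa5 overlapped throughout. Hspa9, the mitochondrial HSP70, had signals of 1205.3, 1696.8 and 2475.1 in Regenerating, 933.5, 1771.7 and 2120.3 in Non-regenerating and 1298.3, 1379.0 and 1521.4 in Traced neurons at its brightest probe set, and a difference of 0.07 (SE 0.13) within animals. Hspa4, an HSP110-type exchange factor, had signals of 178.7, 209.7 and 449.3 in Regenerating, 158.8, 252.8 and 329.7 in Non-regenerating and 257.7, 310.0 and 326.8 in Traced neurons. Its difference was -0.10 (SE 0.16), with means of -0.28 in MM and 0.34 in MOON animals. Hsph1, the main cytosolic HSP110, had signals of 1310.1, 1692.3 and 2136.5 in Regenerating, 1341.2, 2055.0 and 2918.7 in Non-regenerating and 1961.6, 2011.4 and 2881.0 in Traced neurons. Its difference within animals was -0.24 (SE 0.14, adjusted p = 0.725), lower in 5 of 7 animals.

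The cytosolic HSP90 gene Hsp90ab1 was read by 2 tested probe sets that did not behave alike. At the one with the lower mean log2 signal over all arrays, the signals were 42.0, 188.1 and 243.1 in Regenerating, 32.9, 133.4 and 149.3 in Non-regenerating and 118.2, 125.3 and 137.0 in Traced neurons. Its within-animal difference was 0.42 (SE 0.14, adjusted p = 0.678), higher in 7 of 7 animals. At the other one the signals were 56.6, 129.8 and 225.6 in Regenerating, 66.0, 138.3 and 245.6 in Non-regenerating and 72.4, 113.9 and 120.8 in Traced neurons. Its difference was -0.05, higher in 2 of 7. Both probe sets were lower on all 4 MOON arrays than on the 10 axotomised MM arrays. Hsp90b1, the HSP90 of the endoplasmic reticulum, had signals of 98.0, 157.6 and 233.6 in Regenerating, 43.2, 114.3 and 260.3 in Non-regenerating and 57.0, 103.6 and 132.5 in Traced neurons. It differed by 0.30 (SE 0.18, adjusted p = 0.725), with 5 of 7 animals higher, 1.24 in MM17 alone and -0.09 on average in the MOON animals.

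J-protein genes made up 32 of the 64 tested genes, and 21 of them were above 0 within animals, with a median of 0.04. Dnajc12, a small J-protein that in humans assists the enzymes of monoamine synthesis, had signals of 51.4, 67.6 and 105.6 in Regenerating, 51.1, 121.8 and 167.0 in Non-regenerating and 137.0, 156.1 and 158.0 in Traced neurons. It was lower in the Regenerating neurons of 6 of 7 animals (-0.42, SE 0.17, adjusted p = 0.681), MM11 being the exception at 0.32. Dnaja1, a cytosolic partner of HSP70, had signals of 2304.1, 3457.8 and 5684.8 in Regenerating, 2234.7, 3735.8 and 5280.0 in Non-regenerating and 3146.3, 3186.0 and 3328.8 in Traced neurons, and a difference of 0.00 (SE 0.14). The highest values of Dnaja1 were those of the MOON animals in both axotomised groups. Dnajb1, the heat-inducible HSP40, had signals of 528.6, 609.0 and 1209.1 in Regenerating, 434.3, 546.9 and 914.4 in Non-regenerating and 535.8, 540.4 and 902.5 in Traced neurons, and a difference of 0.13 (SE 0.13). Dnajb9, a stress-induced partner of BiP, had signals of 1218.1, 1548.3 and 1968.0 in Regenerating, 969.2, 1263.3 and 2170.5 in Non-regenerating and 1608.2, 1619.0 and 2004.4 in Traced neurons. Its difference was 0.14 (SE 0.16), with means of 0.34 in MM and -0.36 in MOON animals. Dnajc5, the cysteine string protein of synaptic vesicles, had signals of 1878.4, 2941.8 and 3895.8 in Regenerating, 1928.5, 3700.6 and 4374.0 in Non-regenerating and 2783.0, 2958.3 and 4571.9 in Traced neurons, and a difference of -0.22 (SE 0.15), lower in 5 of 7 animals.

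**Figure D3:**
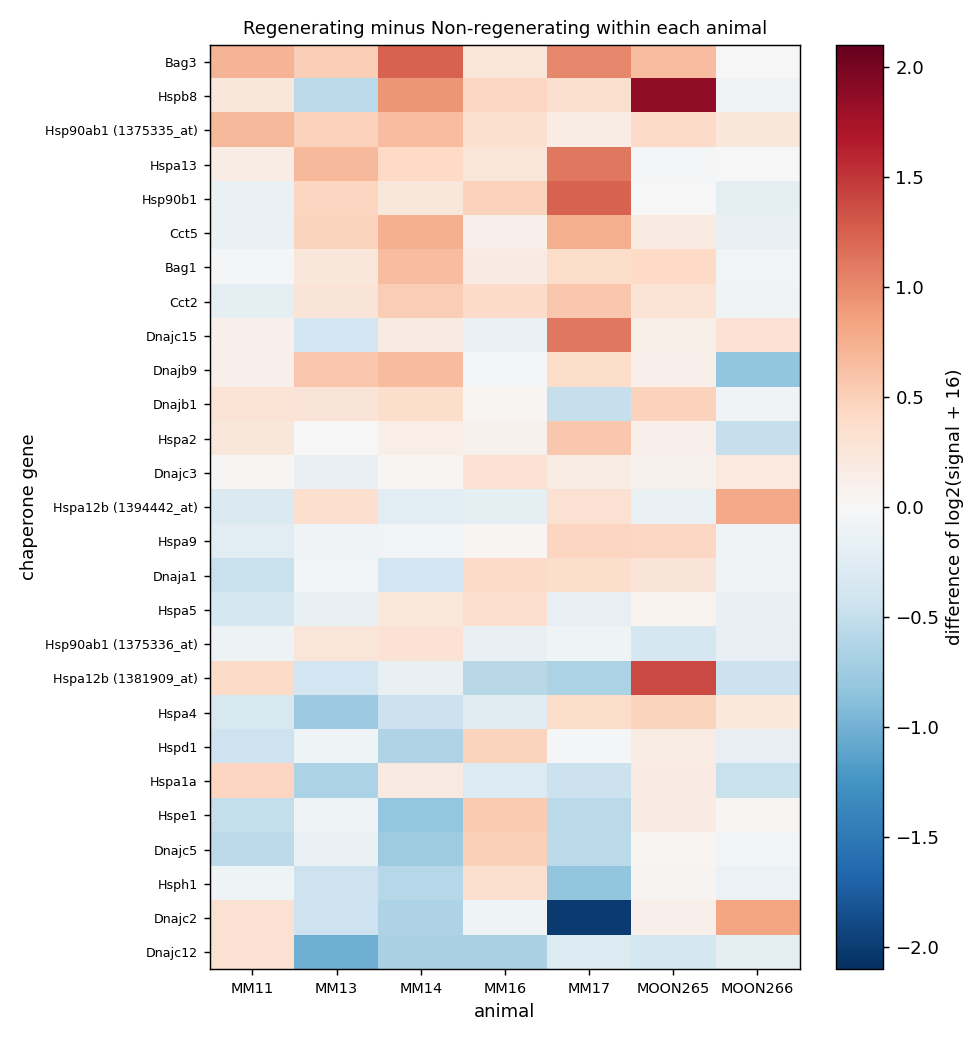
Difference of log2(signal + 16) between the Regenerating and the Non-regenerating sample of each animal for 27 named probe sets, ordered by their mean log2 fold change (red higher in Regenerating, blue lower). Bag3 and 1 Hsp90ab1 probe set are above 0 in every column, and MM17 holds several of the largest values, down to -2.02 for Dnajc2.

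The second question was what axotomy without regeneration goes with. In Non-regenerating against Traced neurons again 0 of the 79 members passed the adjusted threshold, beside 0.043% of all tested probe sets. At an unadjusted p under 0.05, 1 member was higher (1.27%; the testis-enriched HSP70 gene Hspa2), against 2.68%, and 7 were lower (8.86%), against 7.61%; these were probe sets of Hspa1a, Hspa12b, Hspa9, Dnajc2, Dnajc15, Dnajc24 and Dnajc30. The groups did not overlap upwards for 0 members (background 1.1%) and downwards for 1 (1.27%; Bag4, at 88.9 to 176.5 in Non-regenerating and 186.8 to 221.6 in Traced neurons), against 1.47%. Over the 64 genes 31 were above 0 and the median was -0.03, beside a median of -0.12 and 38.8% over all tested probe sets.

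In Regenerating against Traced neurons, which share arrays with both other comparisons, 0 members passed, beside 0.215% of all tested probe sets. Unadjusted, 4 were higher (5.06%; Cct2, Cct5, Dnajc3 and Hspa2), against 5.98%, and 11 were lower (13.9%), against 17.6%. The groups did not overlap for 3 higher members (3.8%; Cct2, Dnajc3 and Hspa2), with a background of 2.35%, and for 6 lower ones (7.59%; probe sets of Hspa1a, Hspa12b, Hspb7, Dnajc2, Dnajc12 and Dnajc24), with a background of 9.36%. The gene median was 0.04 with 33 of 64 above 0, beside -0.12 and 40.8% over all tested probe sets.

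Hspa1a, the stress-inducible HSP70, had the smallest p of all members in both comparisons with Traced neurons. Its signals were 123.3, 185.8 and 400.3 (lowest, median, highest) in Regenerating and 100.6, 178.6 and 522.5 in Non-regenerating neurons, against 669.9, 653.5 and 480.0 in Traced MM15, MM18 and MM19. All Regenerating values lay below all Traced values, and Non-regenerating MM16 and MM17 overlapped with the Traced range. The log2 fold change against Traced neurons was -1.44 (SE 0.34, adjusted p = 0.068) for Regenerating neurons, 2.71-fold lower, and -1.28 (SE 0.42, adjusted p = 0.472) for Non-regenerating neurons, 2.43-fold lower. With MM animals alone the values were -1.29 and -1.13. Over 23 other settings the Regenerating difference lay between -1.59 and -1.22, and 3 of those settings called it. Within animals Hspa1a differed by -0.15 (SE 0.16), with 3 of 7 animals higher. Hspa1a is nearly identical to its neighbour Hspa1b, so that the probe set may read both. Its RefSeq promoter window held 0 matches to the repeat. Sequence outside that window was not searched, and whether the window covers the start used in these neurons was not tested. The missing match therefore does not show that Hspa1a lacks the repeat.

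Hspa2 had signals of 252.2, 334.7 and 491.8 in Regenerating and 234.3, 319.0 and 467.0 in Non-regenerating neurons, against 188.0, 208.5 and 242.1 in Traced neurons. The Regenerating range lay above the Traced range, and only Non-regenerating MOON265 fell within it. The differences from Traced neurons were 0.68 (SE 0.25, adjusted p = 0.124) and 0.58 (SE 0.24, adjusted p = 0.472), and 0.78 and 0.57 in MM animals alone. Hspa12b, a distant HSP70 relative of endothelial cells, gave -0.96 (SE 0.26, adjusted p = 0.071) and -0.89 (SE 0.46, adjusted p = 0.473) at its brighter probe set, with signals of 23.0, 36.0 and 58.9 in Regenerating, 2.9, 40.4 and 103.0 in Non-regenerating and 65.6, 84.4 and 112.8 in Traced neurons. At that probe set Non-regenerating MM17 (103.0) and Traced MM15 (112.8), the arrays that stood apart, lay above the 15 others (2.9 to 84.4). The other tested Hspa12b probe set gave -0.91 (SE 0.37, adjusted p = 0.153) and -0.99 (SE 0.43, adjusted p = 0.472). With MM animals alone the Hspa12b differences were -0.85 and -0.57 at the brighter probe set and -0.59 and -0.58 at the other. Of the 7 tested endothelial markers, 5 were below 0 in each comparison with Traced neurons, with medians of -0.41 for Regenerating and -0.47 for Non-regenerating neurons; summed, they came to 1509.9 to 3775.8 in Regenerating, 1681.9 to 3020.6 in Non-regenerating and 2519.2 to 2912.9 in Traced neurons. The part of these markers in the Hspa12b values was not tested.

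Among J-proteins, Dnajc3, an inhibitor of the stress kinase PERK in the endoplasmic reticulum, had signals of 45.9, 62.8 and 82.0 in Regenerating, 42.2, 53.0 and 80.7 in Non-regenerating and 28.3, 32.3 and 42.7 in Traced neurons. The Regenerating and Traced ranges did not overlap, and the difference was 0.61 (SE 0.23, adjusted p = 0.126). Dnajc12 gave -0.86 (SE 0.26, adjusted p = 0.079) in Regenerating and -0.44 (SE 0.31, adjusted p = 0.572) in Non-regenerating neurons against Traced. Dnajc15, a mitochondrial J-protein, had signals of 111.3, 240.3 and 462.4 in Regenerating, 87.3, 209.3 and 510.4 in Non-regenerating and 221.5, 564.7 and 668.8 in Traced neurons, and differences from Traced of -0.86 (SE 0.44, adjusted p = 0.254) and -1.04 (SE 0.45, adjusted p = 0.472). The MOON arrays held its lowest values, and without them the differences were -0.49 and -0.66.

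Dnajc2, a ribosome-bound J-protein, gave opposite signs at its probe sets. The mean log2 signals of the 2 probe sets over all arrays were close, at 7.47 and 7.54. At the first the signals were 23.3, 110.8 and 319.5 in Regenerating, 17.6, 156.6 and 1227.7 in Non-regenerating and 351.7, 452.4 and 1461.4 in Traced neurons. The values of Non-regenerating MM17 (1227.7) and Traced MM15 (1461.4) stood far above all others. The differences from Traced were -2.36 (SE 0.61, adjusted p = 0.068) for Regenerating and -2.09 (SE 0.90, adjusted p = 0.472) for Non-regenerating neurons, -1.83 and -1.25 with MM animals alone, and -1.13 and -1.14 with the Gapdh ratio as a covariate. The other Dnajc2 probe set gave 0.35 and 0.19. Dnajc24, which takes part in the modification of elongation factor 2, likewise gave opposite signs in Regenerating against Traced neurons. The difference was -1.03 (SE 0.33, adjusted p = 0.088) at its dimmer probe set and 0.20 at the brighter one. At the dimmer probe set of Dnajc24, Non-regenerating MM17 (87.8) and Traced MM15 (109.8) lay above the 15 other arrays (4.9 to 67.3). For Hspa9, the probe set counted as lower against Traced neurons was not its brightest. The brightest gave 0.24 in Regenerating and 0.17 in Non-regenerating against Traced neurons. Across the 14 genes with several tested probe sets, all of them had the same sign in 6 genes within animals, in 5 for Non-regenerating against Traced and in 7 for Regenerating against Traced neurons.

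**Figure D4:**
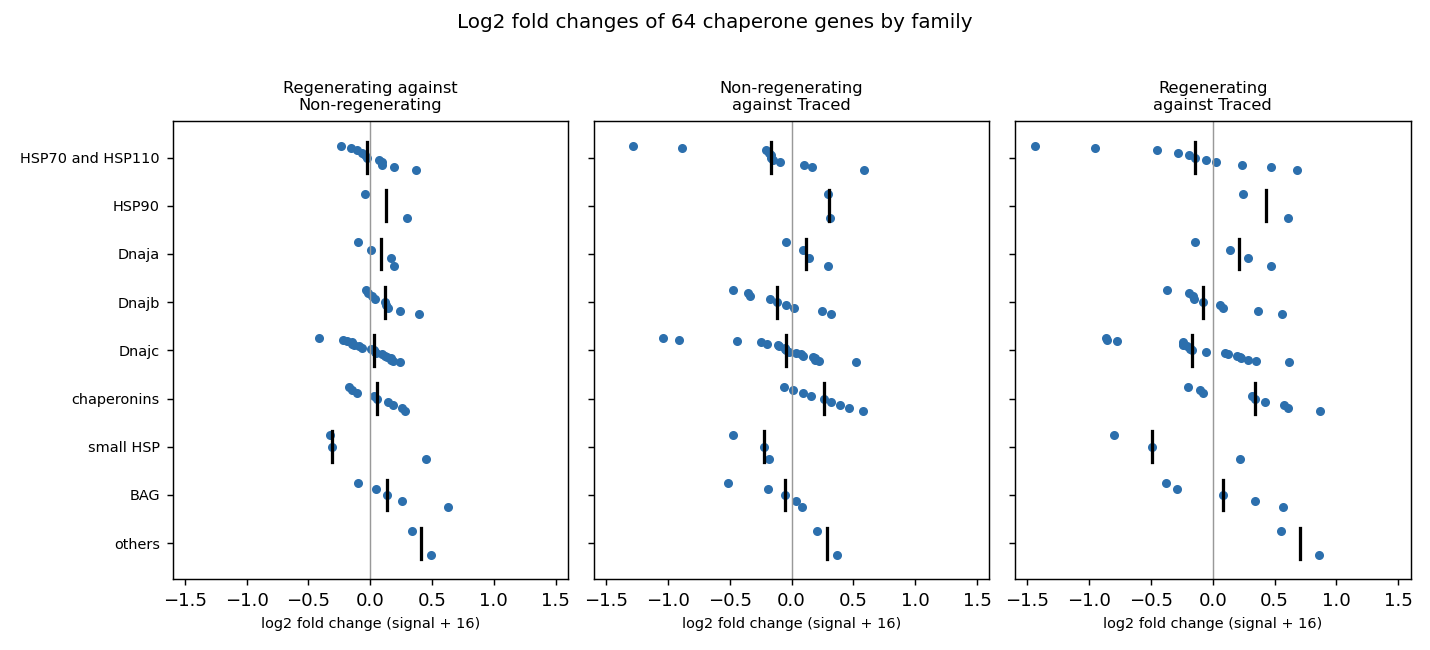
Log2 fold changes of the 64 tested genes by family in the 3 comparisons (1 point per gene at its brightest probe set, bars are family medians). Most genes lie within 0.5 of 0; Hspa1a is the lowest point in both comparisons with Traced neurons, at -1.44 and -1.28.

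The subunits of the cytosolic Cct ring lay mostly above 0 in each comparison, and the comparisons share arrays. Of the 7 tested subunits, 6 were above 0 within animals (median 0.14), 6 in Non-regenerating against Traced (0.32) and 6 in Regenerating against Traced neurons (0.42), always without Cct6a, and 0 passed the adjusted threshold. Cct5 had signals of 456.3, 806.7 and 1039.0 in Regenerating and 261.8, 614.9 and 1105.8 in Non-regenerating neurons, against 259.9, 477.2 and 528.5 in Traced neurons. Only the lowest Regenerating value, in MM17, fell within the Traced range, and the difference was 0.87 (SE 0.30, adjusted p = 0.105). Cct2 had signals of 384.3, 530.3 and 661.3 in Regenerating, 255.7, 484.8 and 568.4 in Non-regenerating and 277.6, 380.4 and 381.5 in Traced neurons, with no overlap between the Regenerating and Traced ranges and a difference of 0.58 (SE 0.22, adjusted p = 0.138). The others differed between Regenerating and Traced neurons by 0.34 (Cct3), 0.32 (Cct4), 0.61 (Cct7), 0.42 (Cct8) and -0.20 (Cct6a). Tcp1, the remaining ring subunit, gave 0.65 (SE 0.24, adjusted p = 0.129) in the same comparison, 0.56 in Non-regenerating against Traced neurons and 0.09 within animals.

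Within animals the Cct median differed in sign between rats. It was -0.19 in MM11, where 0 of 7 subunits were higher in Regenerating neurons, and -0.10 in MOON266, where 1 was. In MM13, MM14, MM16, MM17 and MOON265 it was 0.23, 0.28, 0.30, 0.60 and 0.23, with 5 to 6 subunits higher. The 2 arrays that stood apart had the lowest mean log2 signal of the 7 subunits, 8.91 in Non-regenerating MM17 and 8.86 in Traced MM15, against 9.32 to 9.91 on the other arrays. Within animals the Cct median was 0.015 without MM17, compared with 0.14 over all animals. In Non-regenerating against Traced neurons it was 0.11 without Traced MM15 and 0.14 with the Gapdh ratio as a covariate, compared with 0.32. In Regenerating against Traced neurons it was 0.14 without Traced MM15 and 0.076 with the Gapdh ratio as a covariate. Of the mitochondrial chaperonins, Hspd1 had signals of 2590.3, 3346.7 and 3928.0 in Regenerating, 2416.0, 3519.7 and 4515.3 in Non-regenerating and 3257.4, 3400.4 and 3640.2 in Traced neurons. Hspe1 had 2232.2, 3513.9 and 4150.3 in Regenerating, 2061.4, 3730.6 and 5816.2 in Non-regenerating and 2473.0, 2899.3 and 5612.1 in Traced neurons. Their ranges overlapped in all 3 groups. Hspd1 differed by -0.11, 0.01 and -0.10 and Hspe1 by -0.17, 0.09 and -0.08 within animals, in Non-regenerating against Traced and in Regenerating against Traced neurons.

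**Figure D5:**
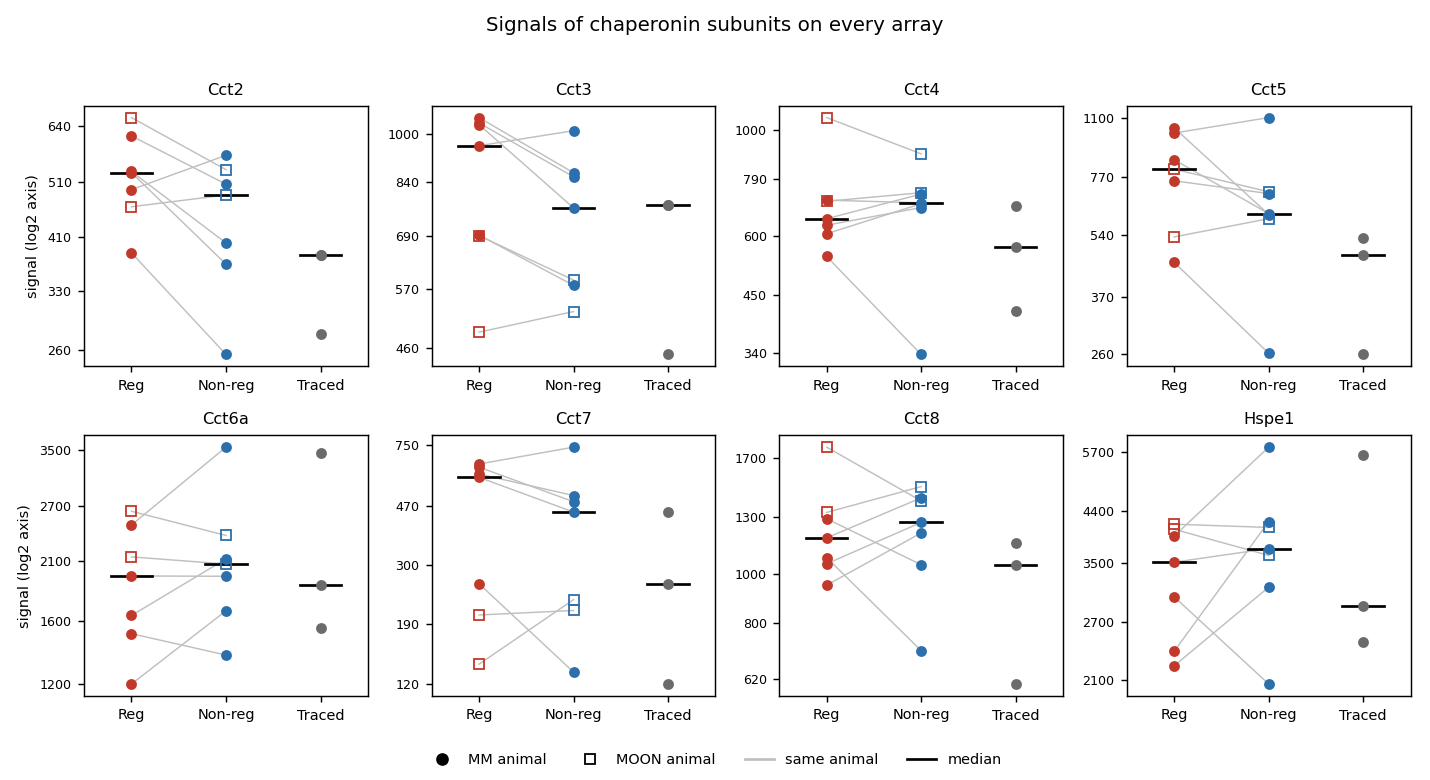
Signal (linear intensity on a log2 axis) of the 7 Cct subunits and of the mitochondrial Hspe1 on each array, with grey lines joining the samples of an animal and bars at the medians. For Cct2, Cct4, Cct5, Cct7 and Cct8 the lowest points are Non-regenerating MM17 and Traced MM15, which are the highest for Cct6a and Hspe1.

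Members were also set against the arrays that stood apart and the animals' name prefixes, a count chosen after values were seen. On 19 member probe sets (24.1%) both Non-regenerating MM17 and Traced MM15 lay below the 15 other arrays, against 11.6% of all tested probe sets, and on 14 (17.7%) both lay above, against 19.4%. The first set held 7 probe sets of Cct2, Cct4, Cct5, Cct7 and Cct8. It also held Bag3, Hspa13, Hspa14, Hspa4l, Hsp90b1, Hspbap1, Dnaja2, Dnaja4, Dnajb4, Dnajc13, Dnajc27 and 1 probe set of Dnajc6. The second held probe sets of Hsph1, Hspe1, Hspb6, Hspb7, Cct6a, Dnajc5, Dnajc8, Dnajc9 and Dnajc30. It also held single probe sets of Dnajc2, Dnajc6, Dnajc24, Hspa12b and Hspa9. The 4 arrays of MOON animals lay above the 10 axotomised MM arrays on 9 member probe sets (11.4%), against 5.34% of all, and below them on 9 (11.4%), against 14.6%. Higher in MOON animals were Dnaja1 (both probe sets), Dnajb1, Dnajb4, Dnajb6, Dnajc10, Dnajc27, Dnajc6 and Hspa9; for Dnajb4, an HSP40 of muscle and other tissues, the signals were 940.8 to 1502.3 in MOON and 362.1 to 592.5 in MM animals. Lower in MOON animals were Bag1, both Hsp90ab1 probe sets, and single probe sets of Dnajb2, Dnajc2, Dnajc7, Dnajc11, Dnajc15 and Hspa12b. What the prefixes stand for is not given in the sources used here.

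Related genes outside the member set were also counted, among them the ring subunit Tcp1 and the small heat shock proteins Hspb1 and Cryab. Of 23 tested heat shock factors and cytosolic co-chaperones, 0 passed in any comparison; 14 were above 0 within animals (median 0.08), 13 in Non-regenerating against Traced (0.12) and 12 in Regenerating against Traced neurons (0.00). At an unadjusted p under 0.05 within animals, 2 of the 23 were higher, beside 4.26% of all tested probe sets, and 0 were lower, beside 2.81%. The 2 were Hspb1 (0.58, SE 0.25, adjusted p = 0.686) and Stub1, the ubiquitin ligase that works with HSP70 and Bag3 (0.42, SE 0.16, adjusted p = 0.678). The heat shock factors Hsf2 and Hsf4 differed by -0.07 (SE 0.15) and -0.07 (SE 0.18). Hsf1, also on the list, was not among the tested genes. Of 19 tested genes of folding and stress response in the endoplasmic reticulum, 0 passed; 14 were above 0 within animals (median 0.07), 8 in Non-regenerating against Traced (-0.07) and 11 in Regenerating against Traced neurons (0.02). Xbp1, a transcription factor of that response, was 0.39 (SE 0.16, adjusted p = 0.681) within animals, and Pdia6, a disulphide isomerase, was 0.77 (SE 0.30, adjusted p = 0.139) in Regenerating against Traced neurons.

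Markers of other cells differed between the groups. Within animals, 7 of the 10 tested markers of microglia and macrophages were above 0 (median 0.16), 0 passed the adjusted threshold, and 4 (Cd74, Aif1, C1qc and Lgals3) were higher at an unadjusted p under 0.05, beside 4.26% of all tested probe sets. All 10 were above 0 against Traced neurons, with medians of 1.52 in Regenerating and 1.23 in Non-regenerating neurons, and 3 and 1 of them passed. Their summed signal was 7383.3 to 12301.8 in Regenerating, 7294.6 to 11139.2 in Non-regenerating and 3851.9 to 4598.2 in Traced neurons, while C1qb, Cx3cr1, Itgam and Tyrobp were too dim to be tested. Of 12 astrocyte markers, 3 were above 0 within animals (median -0.10), as were 3 of the 8 tested oligodendrocyte markers (median -0.03). Against Traced neurons, 10 astrocyte markers were above 0 in Regenerating (median 0.47, with 1 passing) and 12 in Non-regenerating neurons (0.44, with 0 passing). The astrocyte sums overlapped, at 20824.7 to 35716.0, 19849.0 to 40955.5 and 20011.4 to 28827.4 in Regenerating, Non-regenerating and Traced neurons. The part of these cells in the chaperone values was not tested.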

How the data were processed

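The authors' deposited values were linear signal intensities per probe set from 17 Affymetrix rat arrays. GCOS is the tool named in the submitters' processing notes, and its version and settings are not given in the sources used here. The trimmed mean (lowest and highest 2% left out) was 200.04 to 200.08 on each array, so the arrays were used as scaled, and 0 pairs were identical. Signals were taken as log2(signal + 16). A floor at the 40th percentile of the mean log2 value removed 12417 dim probe sets, 57 control probe sets were dropped, and 18625 remained for testing (13224 with 1 gene symbol). The fits were made in limma 3.58.1 under R 4.3.3, with a trended eBayes step, Benjamini-Hochberg adjustment over all 18625 and a threshold of 0.05.

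The contrast of Regenerating with Non-regenerating samples carried animal as a block, and the 2 contrasts with Traced samples, from other animals, had none. The pairing comes from the animal names in the labels; deviations from the group means correlated between the samples of an animal with r = 0.34 to 0.71. Family medians used each gene's brightest tested probe set. Values per sample are given for up to 4 members per comparison and direction with the smallest unadjusted p under 0.05, and for a fixed set of well-known members at their brightest probe set; Hspb6, Hspb7, Bag2, Bag4, Bag5, Hspbap1, Hspbp1, Hspb3, Dnajb4, Dnajb6, Dnajc17, Dnajc24 and the other Cct genes, and the counts on arrays that stood apart and on name prefixes, were added after values were seen. The members, lists and tests were chosen with earlier results of these data known. Fits were run on simulated data with independent noise on each array and no animal effect, so the pairing and the arrays that stood apart were not simulated. Alternatives were other offsets, filters, normalizations, array weights, a Gapdh covariate, MM animals alone and the fit without the block. The comparisons with Traced neurons also left out 1 array at a time. The within-animal comparison left out both arrays of 1 animal at a time. Figures were drawn with Python 3.11.15, numpy 2.4.6 and matplotlib 3.10.9. Planned protein features were not analysed here.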

Additional observations from a re-analysis of the deposited data

Results flagged for a closer look

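Values that lay far from the rest of their group were sought in the Regenerating and Non-regenerating groups for 27 named probe sets, and 2 of 54 groups held one; chance flags about 1 in 20 groups. Both were on the Non-regenerating array of MM17, which stood apart as a whole. Bag3 had a signal of 261.9 there, against 447.7 to 624.8 in the other Non-regenerating samples. Hspa13 had 114.0, against 224.3 to 321.1. Without both arrays of MM17, the log2 fold change of Hspa13 within animals was 0.25, compared with 0.37 with all animals.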

How the results depend on the processing

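In Regenerating against Non-regenerating neurons 0 members passed in each of 20 alternatives, among them the fit with no replicate block (0), and the median over member genes stayed between 0.02 and 0.07. In Non-regenerating against Traced neurons 7 of 79 members passed with array weights (Bag4, Dnajc15, Dnajc2, Dnajc24, Dnajc30, Hspa1a and Hspa9). With those weights 2440 of all 18625 tested probe sets passed, compared with 8 in the fit reported. In Regenerating against Traced neurons 13 of 79 members passed with array weights, where 3131 of all 18625 did, compared with 40. There 3 members passed with an offset of 64 (Dnajc2, Hspa12b and Hspa1a). With 1 array left out 0 to 6 passed, and the 6 came without Regenerating MM17 (Dnajc12, Dnajc2, Dnajc24, Hspa12b, Hspa1a and Hspa9). For these settings the number of all tested probe sets that passed is not given here, so the counts lack a background share. With each array centred on its median signal the medians over member genes were 0.16 in Non-regenerating and 0.22 in Regenerating against Traced neurons, beside 0.08 and 0.05 over all tested probe sets. In Regenerating against Traced neurons, leaving out 1 array moved the median over member genes to between -0.025 and 0.17 and the Cct median to between 0.14 and 0.60. That Cct median was 0.076 with the Gapdh ratio as a covariate and 0.14 without the arrays that stood apart. Over all alternatives the number of all tested probe sets that passed was 0 to 3 within animals, 2 to 2440 in Non-regenerating and 1 to 3131 in Regenerating against Traced neurons. The causes were not tested. The few arrays, and 3 Traced animals, limit what could be called.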

Other observations

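Of the 35 dim member probe sets, which were not tested, those of Hspb3 and Hspb7, both small heat shock proteins of muscle, and of Dnajc17 lay lower in Regenerating than in Traced neurons with no overlap (3 of 35, 8.57%), against 9.45% of all 12417 dim probe sets. Hspb7 had signals of 12.7 to 53.0 in Regenerating neurons and of 54.2 or more in Traced neurons at this probe set, and Hspb3 had 2.8 to 34.9 and 36.4 to 48.6. Dnajc17 had 12.4 to 24.8 in Regenerating and 35.0 to 37.4 in Traced neurons. On Non-regenerating MM17 the signals were 94.7 for Hspb7, 87.1 for Hspb3 and 58.0 for Dnajc17, above all Traced values. Dnajb6, a chaperone that keeps proteins from aggregating, had a signal of 1846.7 on Traced MM15, against 120.4 and 138.7 in the other Traced animals and 136.5 to 571.3 in Regenerating neurons.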
